A study of Mus musculus with 24 samples.

Results

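The nuclear genes for respiratory complexes II to V were followed in the left ventricles of 24 male mice with and without streptozotocin diabetes and with and without an inducible cardiac GLUT4 transgene. The set comprised every gene name on the array that is Sdha, Sdhb, Sdhc, Sdhd or Cyc1, or that starts with Uqcr, Cox4 to Cox8 or Atp5, which gave 49 of the 36413 gene names. These were 4 genes of complex II, 9 of complex III, 19 of complex IV and 17 of complex V. After a filter on dim probes, 48 of the 49 remained, and all 48 were well above background on all 24 arrays. Only Cox8c, the testis isoform of subunit 8, did not pass. The names took in 4 genes whose products are not subunits. They are Cox4nb, a neighbour of Cox4i1 that encodes a subunit of an endoplasmic reticulum complex, Cox7a2l, a supercomplex assembly factor, Atp5s, known as factor B, and Atp5sl, now named Dmac2, an assembly factor of complex I in human cells.

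Complex II (succinate dehydrogenase) feeds electrons from the citric acid cycle into ubiquinone, complex III passes them to cytochrome c, complex IV (cytochrome c oxidase) passes them to oxygen, and complex V (ATP synthase) uses the resulting proton gradient to make ATP. Cardiomyocytes are packed with mitochondria and express these genes at high levels, with muscle isoforms of several complex IV subunits, such as Cox6a2, Cox7a1 and Cox8b, beside the ubiquitous ones. Nuclear and mitochondrial genomes both supply subunits of complexes III, IV and V, while complex II is entirely nuclear.

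The 4 groups held 6 mice each, and each ventricle gave 1 array of 1 colour. In the group mG4H STZ, mice with the inducible, cardiomyocyte-specific GLUT4 transgene were injected on 5 consecutive days with 55 mg per kg of streptozotocin (STZ), which destroys pancreatic beta cells. The group mG4H VEH carried the same transgene and received citrate buffer. The group CON STZ consisted of control mice given STZ, and the group CON VEH of control mice given buffer. Per the series text, the transgene was induced 2 weeks after STZ and hearts were taken after a further 2 weeks. The labels do not give the age of the mice, the background strain, the induction agent or the alleles that CON mice carried, and they mention sibling pairs across groups without naming them. The series asks what glucose delivery does to contractile and mitochondrial function in the heart. Arrays had a 75th percentile of signal of 370 to 583, with 58.5% to 76.3% of their spots well above background. All values below are log2 signals relative to that percentile of the same array, so that 0 is the percentile, and values of different probes are not set against each other. Slides 1 to 3 each held 1 or 2 arrays of every group, while slide 4 held only replicate 3 of mG4H VEH and of CON VEH. These were also the only arrays of scan day 2.

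Promoter sequences from RefSeq (GRCm38.p6) were on hand for 37 of the 49 genes, and the 250 bases before the annotated start were searched on both strands for 5 motifs of factors known to act on respiratory genes. The NRF1 motif (GCGC, any base, TGCGC) occurred before 7 of the 37 genes (18.9%), against 3.74% of 32851 promoters of the same length. The ETS motif CCGGAAG, which GABP binds, occurred before 9 (24.3%), against 6.91% of promoters. The ERR motif AAGGTCA occurred before 2 (5.41%), against 4.08%, the MEF2 motif (CTA, any 4 bases, TAG) before 1 (2.70%), against 3.20%, and the SP1 motif GGGCGG before 12 (32.4%), against 32.7%. Overlaps between different motifs were not removed. The promoter of Sdha (GRCm38.p6, chr13:74350241-74350490, minus strand) is shown as the one among the members with 3 NRF1 matches, which are in capitals. The promoter of Cox7a1 (chr7:30183921-30184170, plus strand), the muscle isoform of complex IV that was lower in STZ hearts, is shown beside that of its ubiquitous partner Cox7a2 (chr9:79759854-79760103, minus strand), in which an SP1 match is in capitals. The promoter of Uqcrc1 (chr9:108936398-108936647, plus strand), also lower in STZ hearts, is the last. None of the 5 motifs was found in the windows of Cox7a1 and Uqcrc1.
Sdha: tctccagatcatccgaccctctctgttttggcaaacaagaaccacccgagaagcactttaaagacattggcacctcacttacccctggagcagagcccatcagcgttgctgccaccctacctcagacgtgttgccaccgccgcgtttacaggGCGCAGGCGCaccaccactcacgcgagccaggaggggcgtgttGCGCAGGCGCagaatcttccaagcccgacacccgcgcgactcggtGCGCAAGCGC
Cox7a1: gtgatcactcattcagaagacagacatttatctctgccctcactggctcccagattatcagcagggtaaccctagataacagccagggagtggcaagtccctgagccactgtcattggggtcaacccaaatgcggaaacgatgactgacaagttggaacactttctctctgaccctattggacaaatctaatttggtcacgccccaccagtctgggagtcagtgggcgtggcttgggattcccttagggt
Cox7a2: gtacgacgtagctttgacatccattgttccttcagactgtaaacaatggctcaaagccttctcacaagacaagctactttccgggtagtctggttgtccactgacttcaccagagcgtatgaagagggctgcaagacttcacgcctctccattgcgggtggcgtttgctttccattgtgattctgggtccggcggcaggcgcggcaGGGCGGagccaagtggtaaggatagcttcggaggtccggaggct
Uqcrc1: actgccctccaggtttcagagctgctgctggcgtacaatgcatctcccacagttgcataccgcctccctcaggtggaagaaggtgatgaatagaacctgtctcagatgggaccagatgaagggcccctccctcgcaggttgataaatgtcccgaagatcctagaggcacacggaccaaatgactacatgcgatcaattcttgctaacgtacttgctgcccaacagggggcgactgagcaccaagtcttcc

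STZ diabetes was accompanied by small decreases in 3 of the 48 genes when the STZ effects of both genotypes were averaged, and by no increase. Cox7a1, the heart and muscle isoform of subunit 7a of cytochrome c oxidase, was lower by 1.22-fold, Cyc1, the cytochrome c1 of complex III, by 1.16-fold, and Uqcrc1, core protein 1 of complex III, by 1.15-fold. The remaining 45 genes did not pass the threshold of 0.05 for p adjusted over all 28232 genes by limma. The 3 lower genes are 6.25% of the set, beside 5.79% of all genes lower and 10.3% changed in either direction, so that the share of lower genes was near that of the array as a whole. Most of the set lay slightly below 0 all the same. The log2 fold change was below 0 in 44 of 48 genes with a median of -0.08. Over all genes tested it was below 0 in 11430 of 28232, with a median of 0.05. This shift was not particular to the set. The 10 cardiomyocyte markers described below had a median of -0.098, and 5 mitochondrially encoded subunits one of -0.095. Most subunits also varied together from array to array, so the signs of the 48 genes are not independent. In a piece of ventricle, fewer cardiomyocytes and less RNA per cardiomyocyte cannot be told apart.

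**Figure D1:**
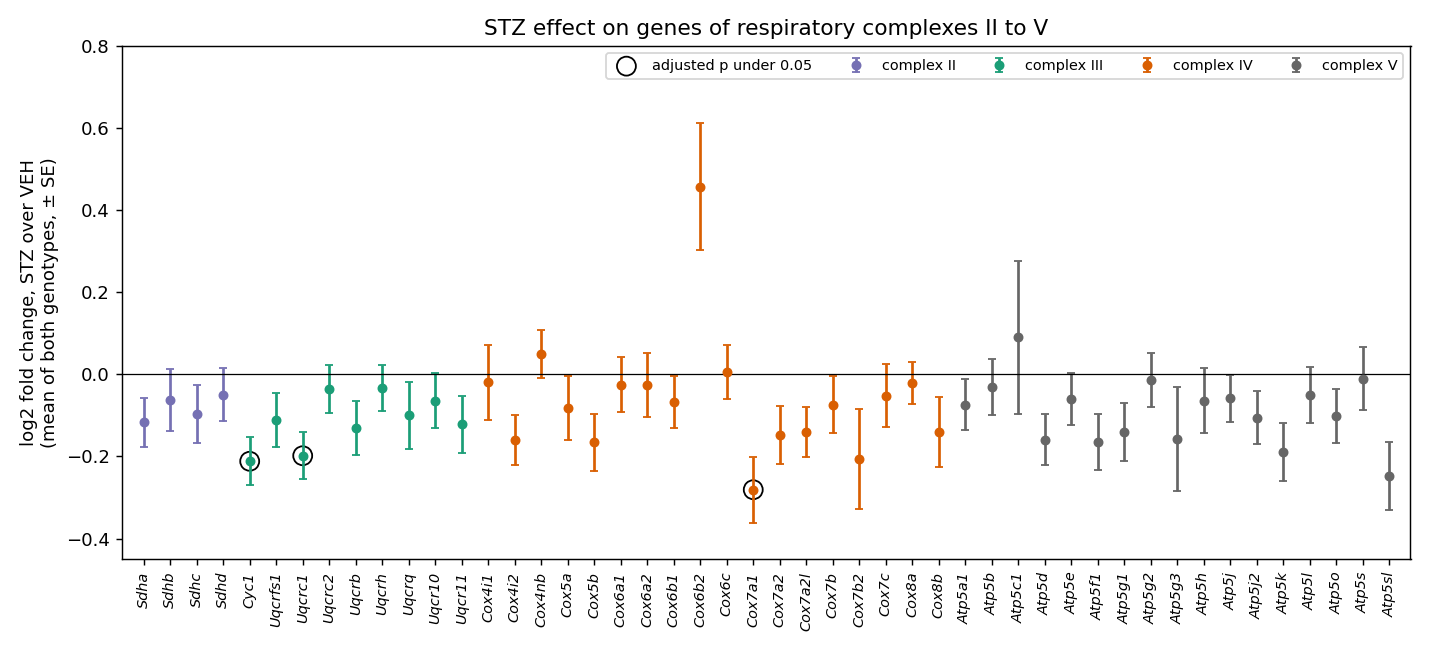
Log2 fold change of STZ over VEH, averaged over both genotypes, for each of the 48 genes in the order of the complexes (vertical axis; bars are the SE from limma). Circles mark Cyc1, Uqcrc1 and Cox7a1, the 3 genes with an adjusted p under 0.05, and all but 4 genes lie below 0.

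Within one genotype, none of the 48 genes passed. In CON hearts, STZ against VEH called 3.96% of all genes and 0 of the 48. An unadjusted limma p under 0.05 was found for 6 of the 48, beside 4026 of all 28232 genes. The median log2 fold change of the set was -0.08 with 43 genes below 0. In mG4H hearts, STZ against VEH called 0.266% of all genes and 0 of the 48. Here 2 of the 48 had an unadjusted p under 0.05, beside 3954 of all 28232 genes. The median of the set was -0.08 and again 43 genes lay below 0. These 2 comparisons use separate mice. The difference between the STZ effects of mG4H and CON hearts was tested directly, and 0% of all genes and 0 of the 48 passed. An unadjusted p under 0.05 was found for 0 of the 48, beside 500 of all 28232 genes.

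No gene of the set differed detectably with the transgene. Comparing mG4H with CON hearts called 0.0815% of all genes under VEH, 0.0106% under STZ and 0.305% when both treatments were averaged. None of the 48 genes was among them, and none had an unadjusted p under 0.05 in any of the 3 comparisons by limma. Of all 28232 genes, 811, 1003 and 1157 did. The median log2 fold change of the set was 0.02 under VEH and 0.03 under STZ. The values furthest from 0 in the averaged comparison were -0.28 ± 0.15 (SE) for Cox6b2, the testis isoform of subunit 6b, and -0.21 ± 0.19 for Atp5c1, the gamma subunit of ATP synthase. At the other end stood Sdhd, a membrane anchor of complex II, with 0.13 ± 0.065 and an adjusted p of 1. The Atp5c1 value goes with replicate 3 of mG4H VEH, which read 4.74 beside 6.70 to 7.02 in the others of its group.

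In complex II the 4 genes moved little. The averaged log2 fold changes of STZ over VEH ran from -0.12 ± 0.059 for Sdha, the flavoprotein that oxidises succinate, to -0.05 ± 0.065 for Sdhd, with adjusted p of 0.257 to 0.755 by limma. Sdha read 6.66, 6.88 and 7.18 (lowest, median, highest of 6) in mG4H STZ hearts, against 6.88, 7.01 and 7.07 in mG4H VEH hearts. It read 6.57, 6.81 and 6.97 in CON STZ hearts, against 6.85, 6.96 and 7.00 in CON VEH hearts. The groups overlapped in both genotypes. For Sdhd, the values were 7.10, 7.36 and 7.79 in mG4H STZ hearts and 7.40, 7.43 and 7.53 in mG4H VEH hearts, so that STZ hearts lay on both sides of the narrow VEH range. Sdhb, the iron-sulphur subunit, and Sdhc, the other anchor, lay between with log2 fold changes of -0.06 ± 0.076 and -0.10 ± 0.071. The Sdhc value rests on 5 CON STZ arrays, since 1 spot was marked as an outlier.

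Complex III had the lowest median of the 4 complexes, with 2 of its 9 genes lower in STZ hearts. Its median log2 fold change for the averaged STZ effect was -0.11, beside -0.08 for complex II, -0.07 for complex IV and -0.07 for complex V, and all 9 genes lay below 0. Differences between complexes were not tested. Cyc1 (probe at mm9 chr15:76175938-76175997) read 6.59, 6.70 and 6.84 in mG4H STZ hearts, against 6.78, 6.90 and 7.10 in mG4H VEH hearts. In CON hearts it read 6.38, 6.75 and 6.78 under STZ, against 6.65, 6.90 and 6.98 under VEH. The ranges overlap in both genotypes, with 1 mG4H STZ heart above the lowest mG4H VEH heart. The averaged fold change was -0.21 ± 0.058 (SE), with an adjusted p of 0.021 by limma.

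Uqcrc1 showed a similar size of change. Its probe spans an intron at mm9 chr9:108851008-108851487. It read 6.54, 6.72 and 6.93 in mG4H STZ hearts, against 6.74, 6.91 and 6.98 in mG4H VEH hearts, and the ranges overlap. It read 6.48, 6.66 and 6.79 in CON STZ hearts, against 6.71, 6.89 and 7.01 in CON VEH hearts, with 1 CON VEH heart inside the STZ range. The averaged log2 fold change was -0.20 ± 0.057 (adjusted p = 0.027, limma). The other 7 subunits gave -0.13 ± 0.066 for Uqcrb to -0.03 ± 0.056 for Uqcrh, the hinge protein, with adjusted p of 0.249 to 0.810. Uqcrfs1, the Rieske iron-sulphur protein, had -0.11 ± 0.065, and Uqcrc2, core protein 2 and the structural partner of Uqcrc1, had -0.04 ± 0.058.

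**Figure D2:**
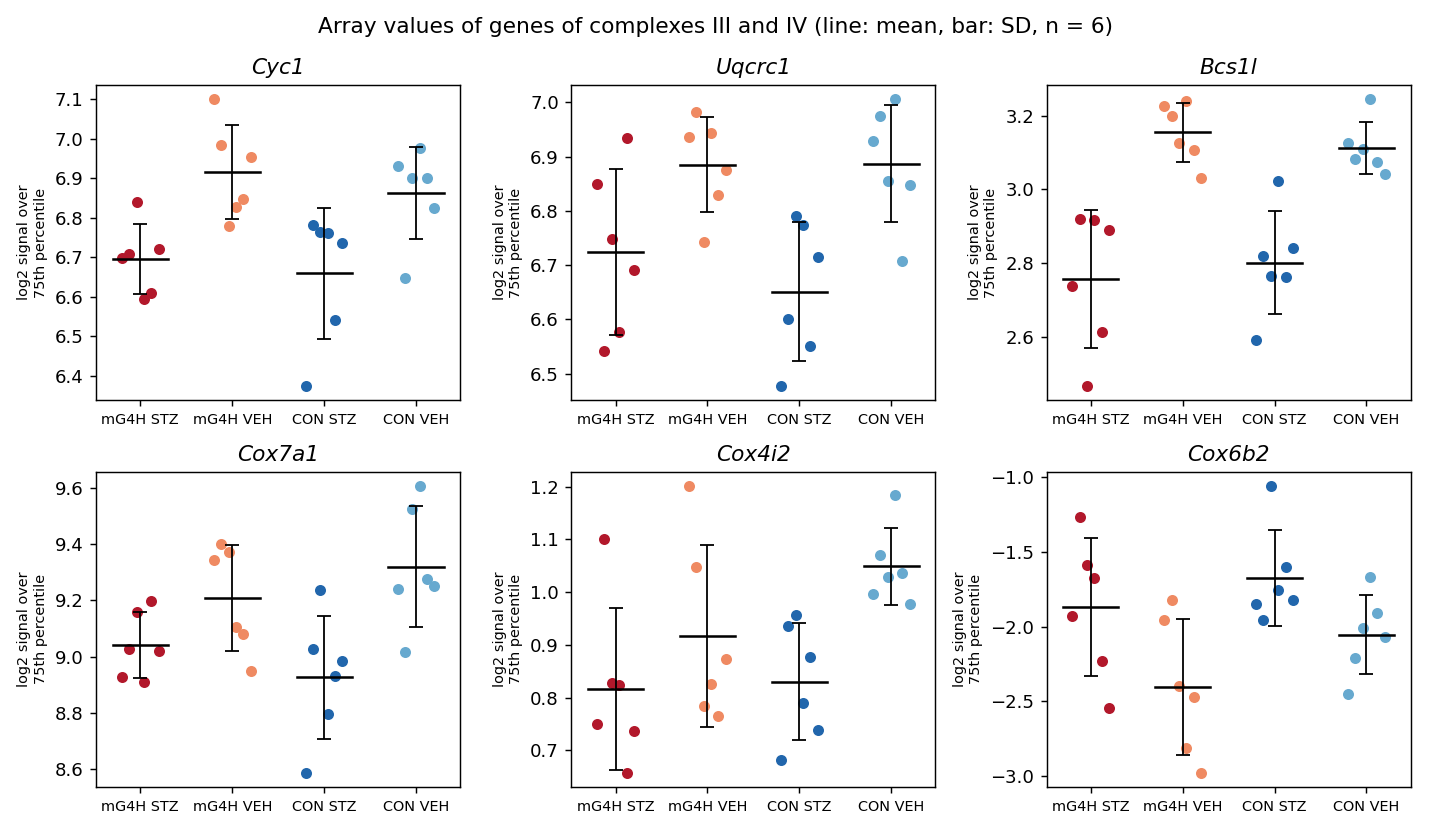
Log2 signal over the array's 75th percentile (vertical axis) of 6 genes of complexes III and IV on each array, in mG4H STZ, mG4H VEH, CON STZ and CON VEH hearts; lines are group means and bars SD (n = 6). For Bcs1l, the STZ hearts lie below the VEH hearts without overlap in both genotypes, while the other 5 genes overlap in at least 1 genotype.

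In complex IV the muscle isoform Cox7a1 was the only gene of 18 that passed. Its probe spans an intron at mm9 chr7:30970337-30970948. Cox7a1 read 8.91, 9.02 and 9.20 in mG4H STZ hearts, against 8.95, 9.23 and 9.40 in mG4H VEH hearts. It read 8.59, 8.96 and 9.24 in CON STZ hearts, against 9.02, 9.26 and 9.61 in CON VEH hearts. The STZ hearts were shifted down in both genotypes with overlapping ranges. The averaged log2 fold change was -0.28 ± 0.080 (adjusted p = 0.0267, limma). In mG4H hearts alone it was -0.17 ± 0.11 and in CON hearts alone -0.39 ± 0.11 with an adjusted p of 0.0525. The difference between the STZ effects, mG4H minus CON, was 0.22 ± 0.16 with an adjusted p of 1.

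The gene with the highest log2 fold change of the whole set was also in complex IV. Cox6b2, the testis isoform of subunit 6b, averaged 0.46 ± 0.15 (adjusted p = 0.0621, limma) and did not pass. It read -2.54, -1.80 and -1.27 in mG4H STZ hearts, against -2.98, -2.44 and -1.82 in mG4H VEH hearts. It read -1.95, -1.79 and -1.06 in CON STZ hearts, against -2.45, -2.04 and -1.67 in CON VEH hearts. All of these values lie below the array's 75th percentile, and the STZ hearts overlap with VEH hearts in both genotypes. Cox4i2, the isoform of subunit 4 known from lung, read 0.68, 0.83 and 0.96 in CON STZ hearts, against 0.98, 1.03 and 1.18 in CON VEH hearts. Its CON STZ and CON VEH values did not overlap, and it still did not pass in CON hearts (-0.22 ± 0.086, adjusted p = 0.192 by limma). In mG4H hearts its values overlapped, at 0.66, 0.79 and 1.1 under STZ and 0.76, 0.85 and 1.20 under VEH. The rest of complex IV ranged from -0.21 ± 0.12 for Cox7b2, a testis isoform of subunit 7b, to 0.05 ± 0.059 for Cox4nb, which is not a subunit.

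Several complex IV subunits exist as pairs of isoforms, and the log2 ratio within a pair does not depend on how an array is scaled. In all, 7 pairs of complexes IV and V were compared in the 4 contrasts between groups, which made 28 exact permutation tests, two-sided, with Benjamini-Hochberg adjustment over the 28. With 6 against 6 or 5 against 6 hearts the smallest p such a test can give is 0.00216, which adjusts to 0.0606 where a single pair reaches it, so that a pair that differed alone could not pass. The smallest p found belonged to Cox6a2 over Cox6a1, the muscle over the ubiquitous isoform of subunit 6a. Its mean log2 ratio was 1.09 ± 0.041 (SD, n = 6) in mG4H VEH hearts and 1.27 ± 0.092 (n = 5) in CON VEH hearts, a difference of -0.19 with an exact permutation p of 0.00216 over 462 splits and an adjusted p of 0.0606, both the lowest that the design allows for a single pair. The values of these groups did not overlap. In STZ hearts the same ratio was 1.12 ± 0.078 in mG4H and 1.18 ± 0.16 in CON, a difference of -0.06 (exact permutation p = 0.5, adjusted p = 0.700). Cox7a1 over Cox7a2, the subunit 7a pair, differed by -0.25 between CON STZ and CON VEH hearts (exact permutation p = 0.0758, adjusted p = 0.397), and differed by -0.01 between mG4H STZ and mG4H VEH hearts. Cox8b over Cox8a differed by -0.19 in CON and by -0.05 in mG4H hearts between STZ and VEH, with adjusted p of 0.397 and 0.660 in the exact permutation tests. Cox6b2 over Cox6b1 stood higher under STZ in both genotypes, at 0.44 in CON and 0.61 in mG4H hearts, each with an adjusted p of 0.397. Cox4i2 over Cox4i1 differed by -0.18 in CON and -0.10 in mG4H hearts.

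**Figure D3:**
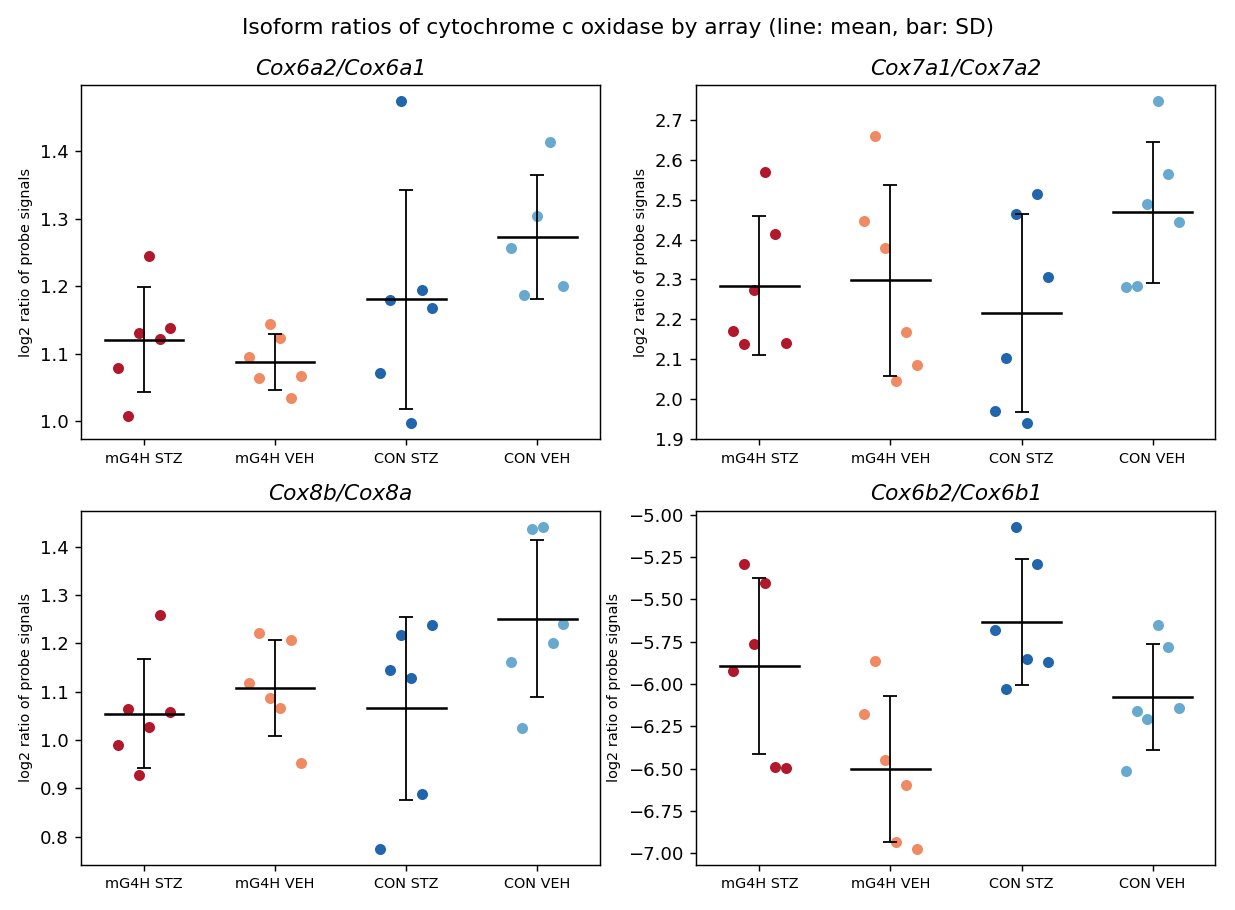
Log2 ratio of probe signals within each array for 4 isoform pairs of cytochrome c oxidase (vertical axes), in mG4H STZ, mG4H VEH, CON STZ and CON VEH hearts; lines are means and bars SD. The ratio Cox6a2 over Cox6a1 lies at 1.09 in mG4H VEH and 1.27 in CON VEH hearts, and these groups do not overlap.

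None of the 17 genes of complex V passed. The 16 genes other than Atp5c1 had averaged log2 fold changes of STZ over VEH below 0, between -0.25 and -0.01. Among its subunits, Atp5k, the membrane subunit e, was lowest at -0.19 ± 0.071 (adjusted p = 0.0945, limma). It read 7.81, 8.13 and 8.25 in mG4H STZ hearts, against 8.19, 8.28 and 8.36 in mG4H VEH hearts, so that most STZ hearts lay below the VEH hearts. Atp5sl had the lowest value of the 17 at -0.25 ± 0.083 (adjusted p = 0.0602, limma). It read 4.22, 4.73 and 4.93 in mG4H STZ hearts, against 4.75, 4.91 and 5.01 in mG4H VEH hearts, and 4.26, 4.60 and 4.80 in CON STZ hearts, against 4.66, 4.82 and 4.97 in CON VEH hearts. The ranges overlap in both genotypes.

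The catalytic core of ATP synthase showed small values. The log2 fold change was -0.07 ± 0.061 for Atp5a1 (alpha) and -0.03 ± 0.069 for Atp5b (beta), with adjusted p of 0.575 and 0.857 by limma. The 3 genes that encode the same c-ring protein gave -0.14 ± 0.071 for Atp5g1, -0.01 ± 0.066 for Atp5g2 and -0.16 ± 0.13 for Atp5g3, and the ratios of Atp5g1 and Atp5g2 to Atp5g3 did not pass in any contrast of the exact permutation tests (adjusted p of 0.397 to 0.948). The wide error of Atp5g3 goes with 1 mG4H STZ heart at 7.21 beside 5 at 8.41 to 8.87. Atp5c1 stood at 0.09 ± 0.19, and its 2 probes differed in sign, with -0.09 ± 0.080 for the dimmer probe. The brighter Atp5c1 probe held 1 value of 4.74 in mG4H VEH hearts beside 5 values of 6.70 to 7.02.

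Most of the subunits varied together from array to array. For each of the 37 subunits with a value on every array, the deviations from the group means correlated with the mean of the others with a median Pearson r of 0.812 over 24 arrays. The lowest r belonged to Cox7b2 (-0.0034), Atp5g3 (0.374) and Cox6b2 (0.386) and the highest to Uqcr11 (0.952) and Uqcrq (0.919), both small subunits of complex III. Outside the set, the 5 gene names closest to the mean of the subunits were Gm4802 (r = 0.957), Fmc1 (0.952), Gm8722 (0.950), Rpl36 (0.945) and Ndufb11 (0.941), of which Ndufb11 is a subunit of complex I and Rpl36 a ribosomal protein. These correlations are descriptions, since all genes of an array share its RNA and its scaling. The mean of the 37 subunits was 6.77, 6.88 and 7.10 (lowest, median, highest) in mG4H STZ hearts, against 6.88, 6.96 and 7.11 in mG4H VEH hearts. It was 6.72, 6.91 and 7.12 in CON STZ hearts, against 6.88, 6.97 and 7.20 in CON VEH hearts. On this scale the groups overlap over most of their range.

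**Figure D4:**
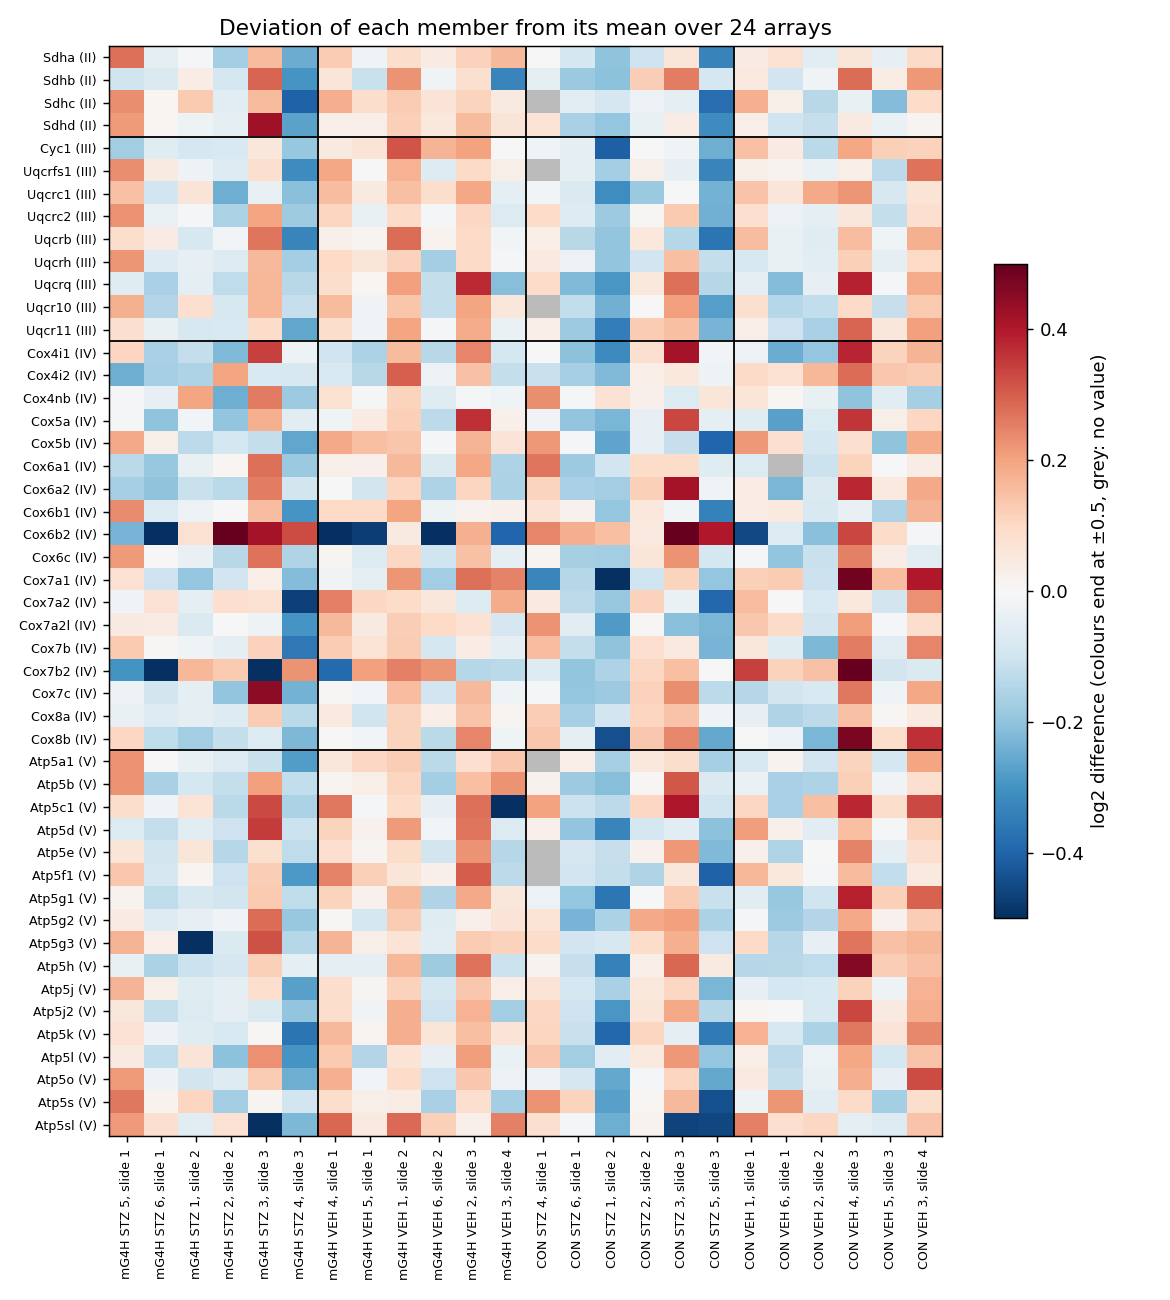
Deviation of each of the 48 genes (rows, by complex) from its own mean over 24 arrays (columns, by group and slide), in log2 units with colours ending at ±0.5 and missing values in grey. Whole columns are blue or red, such as CON STZ 1 (mostly blue) and CON VEH 4 (mostly red), and Cox6b2 and Cox7b2 do not follow the columns.

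This shared variation moved with the signal of the arrays. The mean of the 37 subunits fell as the array's 75th percentile rose, with a Pearson r of -0.724 and a Spearman rho of -0.621 over 24 arrays, and r was -0.691 without the 2 arrays farthest from the median percentile. Within slides 1, 2 and 3, r was -0.664, -0.891 and -0.889 over 8, 7 and 7 arrays. The percentile is itself subtracted to make the mean. After quantile normalization, which gives all arrays the same distribution, r was -0.0957, and the SD of the mean within groups was 0.0426, compared with 0.126 under percentile scaling. On the quantile-normalized log2 scale the mean of the 37 subunits was 15.70, 15.73 and 15.78 (lowest, median, highest) in mG4H STZ hearts, against 15.71, 15.80 and 15.84 in mG4H VEH hearts. It was 15.67, 15.75 and 15.81 in CON STZ hearts, against 15.80, 15.85 and 15.88 in CON VEH hearts. There, 5 of the 6 VEH hearts of each genotype lay above every STZ heart of that genotype, the exceptions being mG4H VEH replicate 3 and CON VEH replicate 5. The median percentile was 472 in mG4H STZ and 462 in mG4H VEH hearts, and 459 in CON STZ and 436 in CON VEH hearts, with ranges that overlap. With quantile normalization 7 of the 48 genes were lower in STZ hearts and 1 was higher, and with scaling to the median 0 were, so the count rests on the scaling. The share of all genes called moves with the setting too. In CON hearts, quantile normalization called 4.72% of all genes, against 3.96% under percentile scaling. For the averaged effect that share is not set beside the 7 genes, so their count is not a result about the set.

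**Figure D5:**
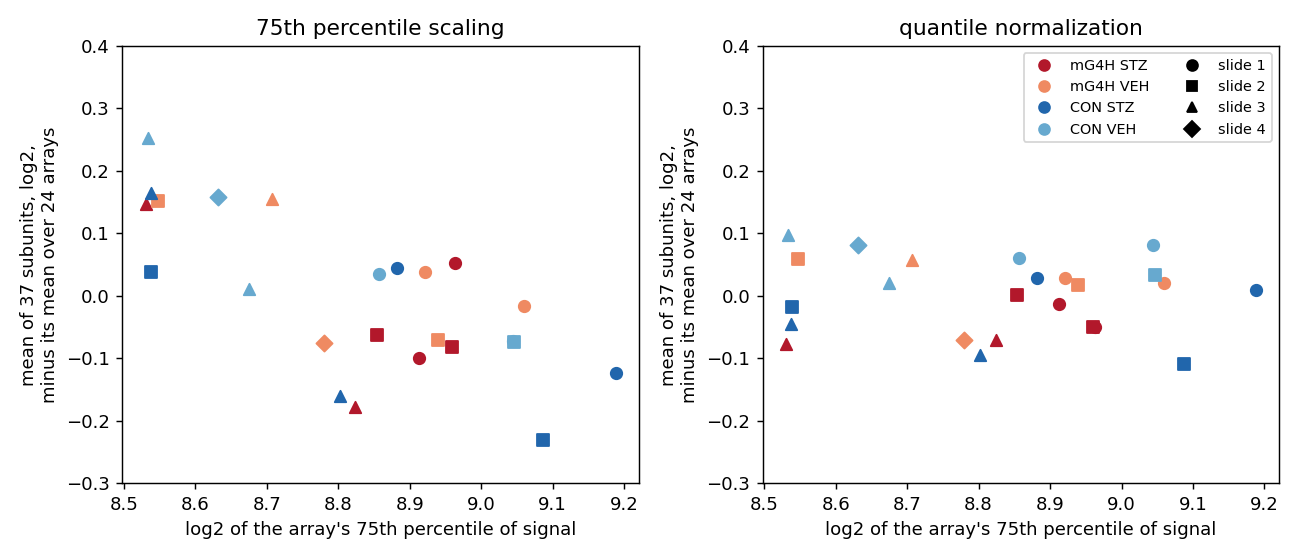
Mean of 37 subunits on each array, as the log2 difference from its mean over 24 arrays (vertical axis), against the log2 of the array's 75th percentile of signal (horizontal axis), for percentile scaling and for quantile normalization; colours are groups and symbols slides. The downward slope in the panel of percentile scaling (r = -0.724) is absent after quantile normalization (r = -0.0957).

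The slides were compared one by one, since each of slides 1 to 3 held all 4 groups. The averaged log2 fold change of STZ over VEH within slides 1, 2 and 3 was -0.15, -0.20 and -0.28 for Cyc1, -0.11, -0.32 and -0.25 for Uqcrc1, and -0.17, -0.19 and -0.36 for Cox7a1. The median of all 48 genes was -0.02, -0.06 and -0.16, with 31, 41 and 46 of them below 0, so that slide 3 held the larger shift. The median over all genes was -0.01, -0.02 and 0.04. With the slide as a block, 5 genes were lower and 1 was higher. These were Cyc1 (-0.22 ± 0.062, adjusted p = 0.0265), Uqcrc1 (-0.21 ± 0.059, adjusted p = 0.0264), Cox7a1 (-0.25 ± 0.074, adjusted p = 0.0369), Cox4i2 (-0.19 ± 0.056, adjusted p = 0.0378) and Atp5sl (-0.22 ± 0.058, adjusted p = 0.0204) as the lower ones and Cox6b2 (0.43 ± 0.13, adjusted p = 0.0361) as the higher one, all by limma. The slide block also moved the share of all genes called, in CON hearts to 4.96% against 3.96% without a block. For the averaged effect that share is not set beside these calls, so their number is not a result about the set. Cox7a1 lost its call without slide 4 (adjusted p = 0.0821). Leaving out CON STZ replicate 1 left Cyc1 alone past the threshold, with adjusted p of 0.0503 for Cox7a1 and 0.0524 for Uqcrc1.

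The subunits encoded by mitochondrial DNA were not called either. The array held CYTB of complex III, COX1, COX2 and COX3 of complex IV and ATP8 of complex V, and 0 of these 5 passed in the averaged STZ effect by limma. Their log2 fold changes ran from -0.15 ± 0.094 for COX1, the catalytic subunit of cytochrome c oxidase, to -0.05 ± 0.072 for COX2. Of the genes for cytochrome c, the carrier between complexes III and IV, the somatic Cycs had -0.10 ± 0.064 and the testis form Cyct 0.09 ± 0.41, and neither passed.

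Several genes that help to assemble complexes II to V were lower in STZ hearts. Of 23 genes listed as assembly factors, 6 (26.1%) were lower in STZ hearts in the averaged comparison and 0 higher, beside 5.79% of all genes lower. In all, 17 lay below 0, with a median log2 fold change of -0.21. The list was drawn widely. It took in Atpif1, an inhibitor of ATP synthase, and Lrpprc, which acts on mitochondrial mRNA, and neither of them passed. Bcs1l, which inserts the Rieske protein into complex III, fell in both genotypes. It read 2.47, 2.81 and 2.92 in mG4H STZ hearts, against 3.03, 3.16 and 3.24 in mG4H VEH hearts, and 2.59, 2.79 and 3.02 in CON STZ hearts, against 3.04, 3.10 and 3.24 in CON VEH hearts. Every STZ heart lay below every VEH heart of its genotype. The log2 fold change was -0.40 ± 0.083 in mG4H (adjusted p = 0.0472) and -0.31 ± 0.083 in CON hearts (adjusted p = 0.0364), and -0.35 ± 0.059 averaged (adjusted p = 0.000573), all by limma. It was -0.36 ± 0.064 with the slide as a block (adjusted p = 0.00164). Its difference between genotypes was among those tested, of which none passed.

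For complex IV, Taco1, which activates translation of mitochondrial COX1, was lower by 1.41-fold (-0.50 ± 0.097, adjusted p = 0.00207). It read 0.09, 0.72 and 0.97 in mG4H STZ hearts, against 0.99, 1.15 and 1.27 in mG4H VEH hearts, with no overlap, and 0.12, 0.63 and 0.97 in CON STZ hearts, against 0.92, 1.14 and 1.20 in CON VEH hearts. Cox11, which takes part in the copper loading of cytochrome c oxidase, was lower by 1.31-fold (adjusted p = 0.00584, limma). It read 3.25, 3.81 and 4.27 in mG4H STZ hearts, against 4.12, 4.25 and 4.41 in mG4H VEH hearts, and 3.71, 3.96 and 4.10 in CON STZ hearts, against 4.21, 4.27 and 4.36 in CON VEH hearts, so that only the CON groups were apart. For complex V, Atpaf1, a chaperone of the F1 head, had -0.44 ± 0.091 (adjusted p = 0.00337, limma). Its probe was dim, with a mean of -2.81, and normexp background correction gave -0.24 (adjusted p = 0.00669). Tmem70, needed for building ATP synthase, had -0.21 ± 0.057 (adjusted p = 0.0168). For complex II, Sdhaf1, which helps the iron-sulphur subunit mature, had -0.21 ± 0.062 (adjusted p = 0.0334), and it missed the threshold with the slide as a block (adjusted p = 0.0511), with the scan day as a block (0.0599), without slide 4 (0.0714) and with quantile normalization (0.0629). The other 17 genes of the list, Surf1, Sco2 and Cox17 among them, did not pass. With scaling to the median, 0 of the 23 passed, all 6 named genes stayed below 0, and the adjusted p of Bcs1l was 0.174.

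Regulators of nuclear respiratory genes and of the expression of mitochondrial DNA, taken as 1 list, were mixed. Of 16 measured, 3 (18.8%) were lower in STZ hearts and 1 was higher, beside 5.79% of all genes lower and 4.51% higher. Tfb1m, a methyltransferase of mitochondrial ribosomal RNA, had -0.43 ± 0.12 (adjusted p = 0.022), Tfam, which packages and transcribes mitochondrial DNA, -0.21 ± 0.066 (adjusted p = 0.0485), and the nuclear receptor Esrrg -0.17 ± 0.054 (adjusted p = 0.0487). Nrf1, the factor that binds the NRF1 motif, was higher by 0.24 ± 0.075 (adjusted p = 0.0394). With the slide as a block Nrf1 and Esrrg missed the threshold (adjusted p of 0.0632 and 0.0686), with quantile normalization Esrrg and Tfam did (0.0607 and 0.0882), with normexp Tfam did (0.0622), and without slide 4 or with scaling to the median none of the 16 passed. With the scan day as a block Tfb1m alone passed (0.0478). The coactivator Ppargc1a had 0.08 ± 0.12 and Esrra -0.14 ± 0.081, and neither passed. These limma values have the same mice behind them as those of the subunits.

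The probe of Slc2a4, the gene for GLUT4, did not differ between mG4H and CON hearts at the threshold, under VEH or under STZ (adjusted p of 1 by limma). Its mean was 6.36 ± 0.43 (SD, n = 6) in mG4H STZ and 6.54 ± 0.11 in mG4H VEH hearts, against 6.16 ± 0.31 in CON STZ and 6.73 ± 0.15 in CON VEH hearts. With STZ it was lower in CON hearts (-0.58 ± 0.16 SE, adjusted p = 0.0436) and in the averaged effect (-0.38 ± 0.11, adjusted p = 0.0345). In mG4H hearts it did not pass (-0.18 ± 0.16, adjusted p = 0.715, all by limma), nor did the difference between these STZ effects. Whether the probe lies in the transgene is not given in the sources used here, so it does not check the genotype labels. Markers of ventricular muscle were high in all groups, with the summed linear signal of 10 cardiomyocyte markers (in multiples of the 75th percentile) at 3610 to 4530 in mG4H STZ, 3550 to 4660 in mG4H VEH, 3360 to 4670 in CON STZ and 3590 to 4810 in CON VEH hearts. In the averaged STZ effect, 1 of the 10 was lower (Ckm) and 0 higher. Of 8 fibroblast markers 2 were higher, of 7 macrophage markers 2, of 8 endothelial markers 1 and of 6 adipocyte markers 1, while of 6 smooth muscle and pericyte markers and of 3 erythroid markers 0 passed. The sum of the 7 macrophage markers was 51.3 to 64.0 in mG4H STZ and 47.3 to 55.6 in mG4H VEH hearts, and 61.1 to 77.6 in CON STZ and 48.9 to 58.2 in CON VEH hearts. The sum of the 8 fibroblast markers was 325 to 439 in mG4H STZ and 288 to 410 in mG4H VEH hearts, and 304 to 553 in CON STZ and 316 to 384 in CON VEH hearts. These sums of linear signal mostly follow their brightest probes and do not weigh the markers equally. Among the macrophage markers, Itgam and Csf1r had mean log2 values of 5.03 and 4.19, while Cd163 had -4.61. Among the fibroblast markers Dcn was brightest, with a mean of 7.62. Of 5 atrial markers 1 was higher (Nppa), while Myl7, Sln and Myl4 lay below 0 and Bmp10 above 0 without passing. Cox7a1 is also used as a marker of brown fat, whose defining markers Ucp1 and Elovl3 did not pass the filter on dim probes, and Cidea was higher. Of 3 skeletal muscle markers past the filter 1 was lower, with sums of 0.313 to 0.802 over all groups. The part of these markers in the results above was not tested.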

How the data were processed

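Cy3-labelled cRNA from left ventricle was read on 1-colour Agilent arrays, per the labels' protocols. Agilent Feature Extraction and limma are the tools named in the submitters' processing notes. Per the file headers, the deposited files came from Feature Extraction 10.5.1.1 with probes placed on mm9, and the processed signal is an intensity after background subtraction and detrending within an array, not scaled between arrays. The raw and background intensities in the deposited files served only in the normexp alternative (offset 50).

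Values are log2 processed signals less the log2 of that array's 75th percentile over gene spots. Outlier spots were left out (0.083% of values), which removed 1 value each of 7 members, and spots of a probe were averaged (55681 probes). Probes well above background on at least 6 of 24 arrays were kept (39763), and the brightest stood for its gene (28232 genes). The 49 members had 72 probes, and 16 members had several. No spot was saturated. No genome sequence was used here, so probes were neither checked for near-identical copies elsewhere nor assigned to exons.

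One limma fit (version 3.58.1, R 4.3.3) took in the 24 arrays, with group means and no covariate. Its two-sided p-values were adjusted over all genes (Benjamini-Hochberg, threshold 0.05). The averaged STZ effect weights both genotypes equally. Isoform ratios were compared with exact permutation tests (924 splits of 6 against 6, or 462 of 5 against 6 where CON VEH lacked a Cox6a1 value). The limma step was tested on simulated data. Replicates are separate mice, and the number of arrays limits the precision. Files were read and plots made in Python 3.11.15 (pandas 2.3.3, matplotlib 3.10.9).

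Members were named with values where they passed the threshold, had the highest or lowest log2 fold change of their complex in a contrast, belonged to an isoform pair, had probes of opposite sign, or failed the filter; other genes are named as examples. The members and the lists were chosen with earlier results of these data known. Alternatives were quantile and median scaling, normexp, no filter and a filter on all 24 arrays, averaging a gene's probes, separate fits, array weights, a trended and robust prior, slide, scan day or replicate number as a block, and fits without slide 4. Leaving out each array in turn was added after the data were seen. No sample was left out.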

Additional observations from a re-analysis of the deposited data

Results flagged for a closer look

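Of 212 sets of arrays (48 genes and 5 means of complexes or subunits, in each of 4 groups), 205 held 6 arrays and 7 held 5 because of a missing value, and 13 held an array that stood apart from the other arrays of its group by Dixon's test, and chance gives about 1 in 20. Of the 13, 5 lay in mG4H STZ replicate 3, which was above the others for each of these genes. It read 8.68 for Uqcrq (others 8.35 to 8.47), 9.20 for Cox6a2 (others 8.74 to 8.85), 7.29 for Cox7c (others 6.60 to 6.82), 6.96 for Cox8a (others 6.70 to 6.79) and 6.45 for Atp5d (others 5.98 to 6.04). Another 4 lay in mG4H STZ replicate 4, which was below the others, with 6.34 for Cox7a2 (others 6.76 to 6.89), 6.78 for Cox7a2l (others 7.00 to 7.12), 6.61 for Cox7b (others 6.92 to 7.10) and 7.81 for Atp5k (others 8.10 to 8.25). Without replicate 3 of mG4H STZ, 4 of the 48 genes were lower in the averaged STZ effect (Cyc1, Uqcrc1, Cox7a1 and Atp5d), and without replicate 4 the same 3 as with it.

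Single probes accounted for the remaining 4. Atp5g3 read 7.21 in mG4H STZ replicate 1 (others 8.41 to 8.87), Atp5c1 4.74 in mG4H VEH replicate 3 (others 6.70 to 7.02), Atp5a1 8.06 in mG4H VEH replicate 6 (others 8.25 to 8.33) and Sdhc 6.82 in CON STZ replicate 5 (others 7.11 to 7.17, from a set of 5). No gene of the set differed in its STZ effect between the genotypes by the test of that difference.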

How the results depend on the processing

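The counts of members past the threshold stayed within 1.5 times of those reported, under the alternatives run, with these exceptions. Members lower in the averaged STZ effect numbered 7 with quantile normalization, 0 with median scaling, 5 with the slide as a block and 5 with array weights, against 3 as reported. Except for median scaling, the shares of all genes called in the averaged effect are not set beside these counts. The counts alone therefore do not show a change particular to the set. Members higher numbered 1 (Cox6b2) with quantile normalization, with a filter on all 24 arrays, with the slide as a block and with array weights, against 0. In CON hearts, members lower under STZ numbered 2 with quantile normalization and 1 with the filter on all 24 arrays, against 0. They numbered 2 with array weights and 1 with a trended robust prior. Cox7a1 was among them each time. The share of all genes called in CON hearts, in either direction, moved as well. It was 4.72%, 6.12% and 8.48% under the first 3 of these settings, against 3.96% as reported. With median scaling the adjusted p was 0.449 for Cyc1, 0.528 for Uqcrc1 and 0.280 for Cox7a1, although all 3 log2 fold changes lay further below 0; 1.38% of all genes were then called, and the median over all genes moved to -0.03. Cox7a1 also lost its call with the scan day as a block (adjusted p = 0.0696) and without slide 4 (0.0821), both by limma. Scan day 2 held only the arrays of slide 4, so these settings are not separate checks, here or for the other genes. No member past the threshold changed sign. Medians of the 48 genes near 0 did, in comparisons without a called member. For mG4H over CON under STZ the median was -0.02 with array weights (30 genes below 0), against 0.03 as reported, and under VEH -0.01 with quantile normalization, against 0.02. For the difference between STZ effects it was -0.05 with median scaling, -0.02 without slide 4 and -0.02 with array weights, against 0.02. For the averaged transgene comparison it was -0.00027 with array weights, against 0.02. Leaving out each array in turn gave 1 to 5 members lower and 0 to 1 higher in the averaged effect and 0 to 1 lower in CON hearts. There were 5 lower without CON STZ replicate 4 or mG4H STZ replicate 2, and 1 lower without CON STZ replicate 1; Cox6b2 passed without mG4H VEH replicate 1 or 2 or mG4H STZ replicate 6, and Cox7a1 passed in CON hearts without CON VEH replicate 2, CON STZ replicate 3 or mG4H STZ replicate 3 or 5. Same-numbered arrays of compared groups correlated between -0.597 and 0.662 in their deviations, and arrays of different numbers were not set beside them. Whether replicate numbers pair siblings is therefore not known. The replicate block gave 2 members lower, with Uqcrc1 at an adjusted p of 0.059. The causes of these changes were not tested. With 6 arrays a group, the SE of the averaged effect was 0.051 to 0.19 on the log2 scale, which limits what a change of under 0.2 can show.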
